A study of Mus musculus with 8 samples.

Results

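The 7 erythroid genes described here do not encode globin chains. They were followed in whole brains of wild-type mouse embryos at E14.5, in midgestation. They were *Alas2*, *Slc4a1*, *Epb42*, *Klf1*, *Gata1*, *Rhag* and *Tfrc*, taken by gene symbol from the table of all genes. All 7 were found, each on 1 row, among 33971 genes.

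Red blood cells carry hemoglobin, which joins globin chains to heme, a ring that holds iron. Their precursors take up iron through the transferrin receptor (*Tfrc*), start heme synthesis with the erythroid enzyme aminolevulinate synthase 2 (*Alas2*), and build a membrane skeleton that is tied to the anion exchanger band 3 (*Slc4a1*) through proteins such as protein 4.2 (*Epb42*). The transcription factors GATA1 and KLF1 switch on this program, and the Rh-associated glycoprotein (*Rhag*) is needed for the Rh complex of the red cell surface. In the embryo, an early wave of red cells from the yolk sac carries embryonic globins, and cells made later in the fetal liver carry adult globins. A dissected brain can hold both inside its vessels.

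Dams were kept on choline-deficient food (CDD) or on normal chow (ND), and 4 embryo brains were sequenced for each diet. The diet began with mating according to the study's methods, and the embryos of both groups were wild-type. RNA was poly-A selected and sequenced in bulk. Neither the number of dams and litters nor any removal of blood was given in the sources used here, so p-values measure only the spread between these brains.

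Libraries held 31770217 to 43121170 counts, and CPM below is the count per 1000000 counts of the library after TMM scaling. The 10 brain markers listed for this check summed to between 6716 and 7561 CPM, and none of them was at 0 in every brain. Markers of other cell types overlapped between the diets in their sums, at 418 to 447 CPM (CDD) and 433 to 451 CPM (ND) for 12 endothelial genes, and at 7.99 to 9.88 CPM (CDD) and 7.97 to 10.7 CPM (ND) for 9 platelet and megakaryocyte genes. The 10 macrophage and leukocyte genes summed to 67.6 to 77.3 CPM in CDD and 75.2 to 86.5 CPM in ND brains. At an edgeR adjusted p under 0.05, 2 of these 10 genes, 1 of the 12 endothelial genes and 0 of 4 platelet and megakaryocyte genes tested were called. Over all genes tested, 8.83% were called, and 15% had no overlap in CPM. The calls fell in CDD (chosen after their values were seen), namely the macrophage receptors *Cd163* by 1.38 (edgeR adjusted p = 0.00309, no overlap) and *Mrc1* by 0.27 (edgeR adjusted p = 0.0335), and the endothelial junction gene *Cldn5* by 0.28 on the log2 scale (edgeR adjusted p = 0.00768, no overlap). Above 0 were the log2 fold changes of 4 of the 10 macrophage and leukocyte genes and 4 of the 12 endothelial genes. The 4 liver genes found, markers of the organ where red cells form at this age, were near 0 with a sum of 0.271 to 0.578 CPM. CDD replicate 2 stood apart by 4984 counts on 28 *Hox* genes, which are expressed in hindbrain and spinal cord, against 16 to 112 counts in the other 7 brains.

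In reads per length, given as the authors' FPKM, the 7 genes covered a wide span of levels. *Tfrc* was highest, with 14.2 ± 1.91 FPKM (SD, n = 8, range 12.3 to 17.6), followed by *Alas2* with 11.0 ± 5.52 FPKM (SD, n = 8, range 5.73 to 23.3). The ranges of these 2 genes overlapped. *Slc4a1* lay below both at 1.23 ± 0.447 FPKM (SD, n = 8), and *Klf1* below *Slc4a1* at 0.343 ± 0.0947 FPKM (SD, n = 8), each without overlap with its upper neighbour. *Epb42* at 0.0795 ± 0.0519 FPKM, *Gata1* at 0.0523 ± 0.0302 FPKM and *Rhag* at 0.0456 ± 0.0281 FPKM (SD, n = 8 each) had ranges that overlapped with one another and lay below that of *Klf1*. *Gata1* and *Rhag* were near zero and did not pass the filter on low counts, so 5 of the 7 genes were tested.

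**Figure D1:**
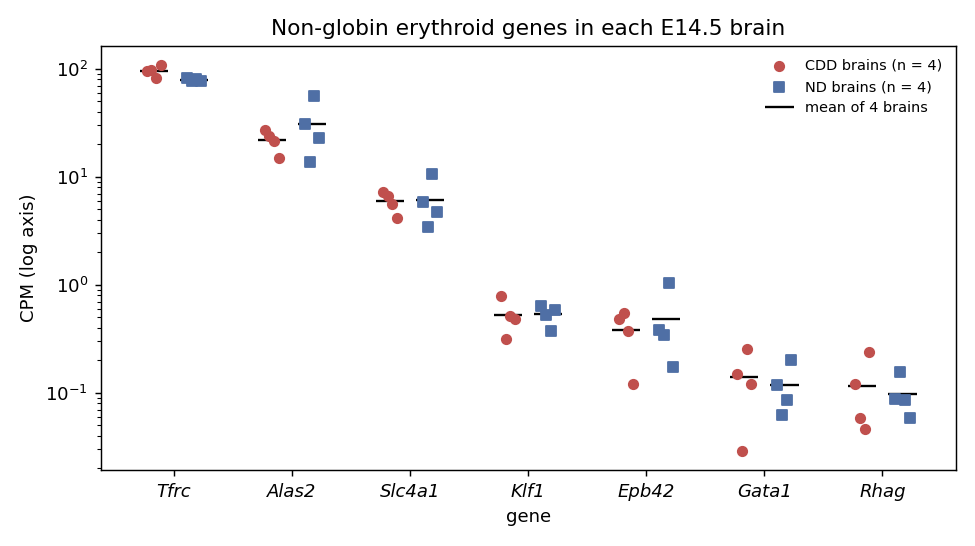
Level of each of the 7 genes in each brain, in CPM on a log axis, with 1 point per brain and the mean of 4 brains as a line. The CDD and ND points overlap for every gene, and ND replicate 3 is the highest ND point of Alas2, Slc4a1 and Epb42.

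The sequence just before the start of these genes is shown for 3 of them, because GATA1 reads GATA sequences and KLF1 reads CACCC boxes. RefSeq promoter windows on GRCm38.p6 were found for 6 of the 7 genes, and *Slc4a1* was not among them. The gene coordinates given further below are those of the authors' table, whose genome build is not named. They do not match the positions of these windows and cannot be compared with them. Each line holds the 250 bases before the annotated start, 5′ to 3′ on the strand of the gene, with the letters GATAA and CACCC in capitals on either strand (TTATC and GGGTG on the reverse).
*Alas2* (chrX:150547167-150547416, + strand): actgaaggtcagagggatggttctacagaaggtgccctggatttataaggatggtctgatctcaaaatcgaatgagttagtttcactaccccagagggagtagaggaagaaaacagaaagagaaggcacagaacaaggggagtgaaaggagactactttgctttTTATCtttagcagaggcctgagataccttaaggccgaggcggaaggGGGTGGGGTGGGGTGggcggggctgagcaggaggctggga
*Klf1* (chr8:84901732-84901981, + strand): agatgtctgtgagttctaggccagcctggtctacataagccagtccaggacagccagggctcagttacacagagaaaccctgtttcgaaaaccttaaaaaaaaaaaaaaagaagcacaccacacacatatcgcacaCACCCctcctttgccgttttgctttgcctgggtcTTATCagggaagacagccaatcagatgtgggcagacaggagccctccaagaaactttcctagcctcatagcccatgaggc
*Tfrc* (chr16:32608646-32608895, + strand, first of 2 starts): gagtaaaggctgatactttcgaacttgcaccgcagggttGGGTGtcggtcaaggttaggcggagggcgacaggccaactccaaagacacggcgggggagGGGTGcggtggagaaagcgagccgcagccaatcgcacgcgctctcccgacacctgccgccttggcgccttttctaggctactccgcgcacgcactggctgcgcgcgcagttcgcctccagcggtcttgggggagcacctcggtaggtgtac

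The letters GATAA stood 86 bases before the start of *Alas2*, 80 before that of *Klf1*, 31 before that of *Rhag* and 226 before that of *Epb42*. They were absent from the windows of *Gata1* and *Tfrc*. Of 32851 such windows in the RefSeq table, 22.6% held GATAA and 52.0% held CACCC, against 4 and 6 of the 7 windows of these genes. The first window of *Tfrc* held 25 CG pairs, those of *Alas2* and *Klf1* held 4 and 3, and the median over all windows was 6. These matches describe letters in a short window and were not tested for use as sites.

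The comparison of CDD with ND brains asks how low choline in the mother's diet changes gene expression in the embryonic brain. *Tfrc* was the 1 gene of the 5 tested that rose in CDD brains. The means of *Alas2*, *Slc4a1*, *Epb42* and *Klf1* differed by less than the spread between brains. Over all 19367 genes tested, 8.83% passed the same threshold (edgeR's quasi-likelihood test, Benjamini-Hochberg adjusted p under 0.05) with 4.24% higher and 4.59% lower in CDD. At an unadjusted p under 0.05, 1 of the 5 genes and 23.9% of all genes passed. None of the 5 genes had CPM values without overlap between the diets, where 15% of all genes did and 7.65% were higher in CDD. With 5 genes tested, 1 call says nothing about the group as a whole. DESeq2 (13.9% of the genes it adjusted were called) called 1 of the 3 members it adjusted, and limma-voom called 1 of 5, again *Tfrc* in each.

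*Tfrc* (ENSMUSG00000022797, chromosome 16, 32427738 to 32451612 in the authors' table) encodes the receptor that brings iron-loaded transferrin into cells, and dividing cells of many kinds express it. It was at 96.1, 98.8, 82.6 and 108 CPM in CDD replicates 1 to 4 and at 83.0, 77.2, 80.8 and 76.7 CPM in ND replicates 1 to 4. Of the CDD brains, 3 of 4 lay above every ND brain, and CDD replicate 3 fell just below ND replicate 1. The means were 96.5 ± 10.6 CPM (SD, n = 4) and 79.4 ± 2.99 CPM (SD, n = 4), a log2 fold change of 0.28 (SE 0.064, edgeR adjusted p = 0.0151). With any 1 brain left out, the rise was between 0.22 and 0.35 on the log2 scale. The call was lost without ND replicate 3 (edgeR adjusted p = 0.0549) or without ND replicate 4 (edgeR adjusted p = 0.0577), and was held without CDD replicate 2, the brain with *Hox* counts (log2 fold change 0.27, edgeR adjusted p = 0.0448).

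Some markers of neural cells also rose. The 10 brain markers summed to 6767 to 7561 CPM in CDD and 6716 to 6824 CPM in ND brains. Of these 10 genes, 4 rose in CDD brains, where 4.24% of all genes did, and 0 fell. Among the 4, nestin (*Nes*), a filament protein of neural progenitors, rose by 0.47 on the log2 scale (SE 0.078, edgeR adjusted p = 0.00344), and *Pax6*, a transcription factor of the same cells, by 0.25 (SE 0.051, edgeR adjusted p = 0.00642). Also called were *Vim* at 0.21 (edgeR adjusted p = 0.0183) and the neuronal gene *Gad2* at 0.16 (edgeR adjusted p = 0.0357). The progenitor gene *Sox2* was not called, at 0.09 (edgeR adjusted p = 0.183). Neuronal markers not called were the tubulin *Tubb3* at 0.02 on the log2 scale (edgeR adjusted p = 0.879), *Dcx* at 0.06 (edgeR adjusted p = 0.552) and *Map2* at 0.09 (edgeR adjusted p = 0.387). Nor were *Neurod6* at -0.10 (edgeR adjusted p = 0.254) and *Stmn2* at -0.14 (edgeR adjusted p = 0.108). The part of these cells in the level of *Tfrc* was not tested.

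*Alas2* (ENSMUSG00000025270, chromosome X, 149330371 to 149353634) makes the first and limiting step of heme synthesis in red cell precursors. It was at 27.3, 24.2, 21.7 and 14.9 CPM in CDD replicates 1 to 4. In ND replicates 1 to 4 it was at 30.9, 13.8, 56.6 and 22.7 CPM. ND replicate 3 stood highest of the 8 brains and ND replicate 2 lowest, so the ND brains enclosed the CDD brains. Means were 22.0 ± 5.27 CPM for CDD (SD, n = 4) and 31.0 ± 18.4 CPM for ND (SD, n = 4), and the log2 fold change was -0.50 (SE 0.46, edgeR adjusted p = 0.584). Without ND replicate 3 the log2 fold change was -0.03. In bulk RNA, the number of red cells and the RNA per red cell cannot be told apart.

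*Slc4a1* (ENSMUSG00000006574, chromosome 11, 102239650 to 102257029) encodes band 3, which exchanges chloride for bicarbonate and anchors the membrane skeleton. It was at 7.28, 6.69, 5.65 and 4.16 CPM in CDD replicates 1 to 4 and at 5.88, 3.44, 10.6 and 4.78 CPM in ND replicates 1 to 4. Here too ND replicate 3 was highest and ND replicate 2 lowest. The means were nearly equal, at 5.94 ± 1.37 CPM (SD, n = 4) and 6.16 ± 3.09 CPM (SD, n = 4), with a log2 fold change of -0.06 (SE 0.37, edgeR adjusted p = 0.952). Its direction turned without ND replicate 3, to 0.33 (edgeR adjusted p = 0.412).

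*Epb42* (ENSMUSG00000023216, chromosome 2, 120848372 to 120867553), the membrane protein bound to band 3, had 16, 19, 16 and 4 counts in CDD replicates 1 to 4 and 13, 11, 36 and 6 counts in ND replicates 1 to 4. Replicate 4 of each diet was lowest, and ND replicate 3 was highest, as for *Slc4a1*. The log2 fold change was -0.35 (SE 0.50, edgeR adjusted p = 0.738), and 0.35 without ND replicate 3.

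*Klf1* (ENSMUSG00000054191, chromosome 8, 85628557 to 85631924), the factor that binds CACCC boxes of globin and other red cell genes, had 26, 11, 22 and 16 counts in CDD replicates 1 to 4 and 22, 17, 13 and 20 counts in ND replicates 1 to 4. Its order over the brains was another one, with CDD replicate 1 highest and CDD replicate 2 lowest. At 0.524 ± 0.193 CPM (SD, n = 4) and 0.533 ± 0.114 CPM (SD, n = 4), it had a log2 fold change of -0.03 (SE 0.32, edgeR adjusted p = 0.973).

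*Gata1* (ENSMUSG00000031162, chromosome X, 7825499 to 7844310), the factor at the head of the program, had 5, 1, 11 and 4 counts in CDD and 4, 2, 3 and 7 counts in ND replicates 1 to 4. *Rhag* (ENSMUSG00000023926, chromosome 17, 41122017 to 41151645) had 4, 2, 2 and 8 counts in CDD and 3, 5, 3 and 2 counts in ND replicates 1 to 4. At 1 to 11 counts per library, a diet difference was not detectable at this depth for either gene. Tested without the filter, where 6.99% of all genes were called, their log2 fold changes were 0.27 (SE 0.67, edgeR adjusted p = 0.906) for *Gata1* and 0.23 (SE 0.77, edgeR adjusted p = 0.932) for *Rhag*.

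The globins give a measure of red cell RNA in each brain. The 4 adult globin genes (*Hba-a1*, *Hba-a2*, *Hbb-bs* and *Hbb-bt*) summed to 1196, 1110, 942 and 611 CPM in CDD replicates 1 to 4 and to 1544, 775, 2881 and 1185 CPM in ND replicates 1 to 4. This sum varied 4.71-fold, was again highest in ND replicate 3, and overlapped between the diets, with a CDD mean of 965 ± 258 CPM (SD, n = 4) and an ND mean of 1596 ± 912 CPM (SD, n = 4) (exact two-sided permutation test, p = 0.257). None of the 4 genes was called, with 0 calls by edgeR, 0 by DESeq2 and 0 by limma-voom and 0 at an unadjusted edgeR p under 0.05. The embryonic globins (*Hbb-y*, *Hba-x* and *Hbb-bh1*) were between 114 and 222 CPM in sum in CDD and between 33.3 and 45.0 CPM in ND brains, and 2 of these 3 genes rose. *Hbb-y* rose by 2.24 on the log2 scale (edgeR adjusted p = 0.00651) and *Hba-x* by 1.67 (edgeR adjusted p = 0.0208). *Hbb-bh1* was not called, at 0.91 (edgeR adjusted p = 0.141). Over all genes tested, edgeR called 8.83%, with 4.24% higher in CDD, and 23.9% had an unadjusted p under 0.05.

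*Alas2* followed the adult globins closely from brain to brain. Over the 8 brains, the log2 CPM of *Alas2* and of summed adult globins had a Pearson's r of 0.974 (exact permutation p = 3.22e-04, adjusted over 5 relations 0.00161) and a Spearman's rho of 0.952 (exact permutation p = 0.00114, adjusted 0.00570). Without CDD replicate 4 and ND replicate 3, the brains farthest from the median globin level, r was 0.932. *Alas2* varied 4.08-fold between brains, nearly as much as the globins.

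*Slc4a1* had lower values over the 8 brains, with r = 0.854 (exact permutation p = 0.00935, adjusted 0.0234) and rho = 0.810 (exact permutation p = 0.0218, adjusted 0.0544). The r of *Slc4a1* was 0.627 without the same 2 brains, and 0.680 without ND replicate 3 alone (exact permutation p = 0.0921). Both diets are pooled here, so these values also hold the diet difference in the ratio of *Slc4a1* to adult globins given below. Within a diet, the SD of this log2 ratio was 0.0875 (CDD) and 0.120 (ND). For *Alas2* it was 0.0657 and 0.0716 (n = 4 each). For *Epb42*, r = 0.776 (exact permutation p = 0.0261, adjusted 0.0434) and rho = 0.714 (exact permutation p = 0.0576, adjusted 0.0960), but r fell to 0.0169 without CDD replicate 4 and ND replicate 3, so the relation rests on those brains.

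For *Klf1* and *Tfrc*, no relation with the adult globins passed the test. For *Klf1*, r = -0.162 (exact permutation p = 0.710) and rho = 0.238 (exact permutation p = 0.582), and r was 0.305 without the 2 outlying brains. For *Tfrc*, r = -0.399 (exact permutation p = 0.336) and rho = -0.238 (exact permutation p = 0.582), with 0.268 without those 2 brains. *Tfrc* varied 1.41-fold between brains where the globins varied 4.71-fold. With the embryonic globins in place of the adult ones, the r of *Tfrc* was 0.832 (exact permutation p = 0.0141), but embryonic globin levels fell into separate ranges for the diets, so this value also holds the diet difference. Within a diet, 4 brains are too few for a correlation of any of these genes.

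**Figure D2:**
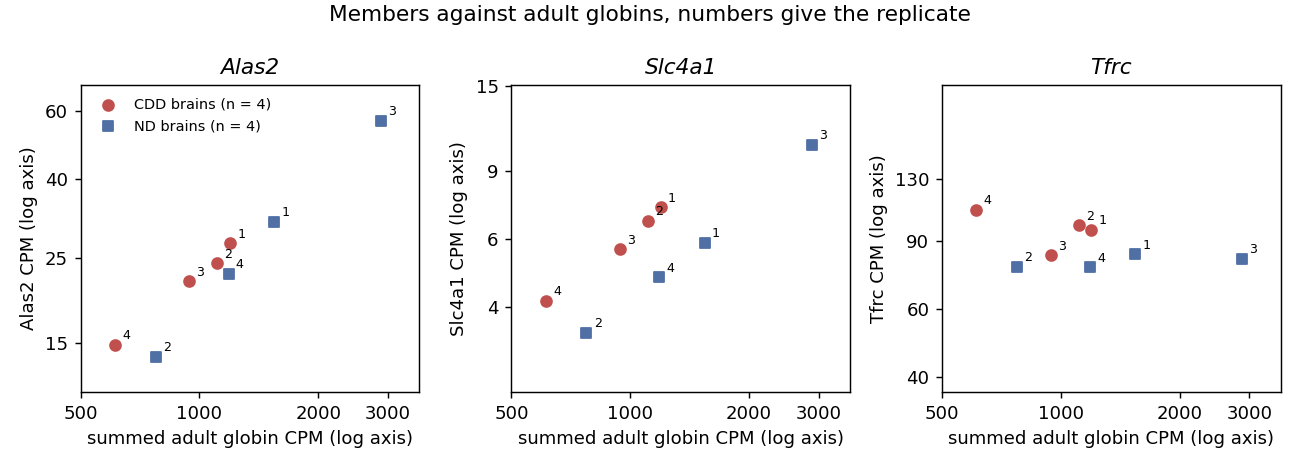
CPM of Alas2, Slc4a1 and Tfrc against summed adult globin CPM in the same brain, both on log axes, with 1 point per brain and the replicate number beside it. Alas2 and Slc4a1 rise with the globins, with the CDD points above the ND points at like globin level and a smaller gap for Alas2. Tfrc stays between 76.7 and 108 CPM over the whole globin range.

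The genes most like each member over the 8 brains were taken by Pearson's r of log2 CPM among the 15885 genes that averaged 1 CPM or more. For *Alas2* they were *Ube2l6* (r = 0.982), an enzyme of the ubiquitin family, and the adult globins *Hba-a1* (r = 0.980) and *Hbb-bt* (r = 0.978). For *Slc4a1* they were *Blvrb* (r = 0.957), biliverdin reductase B, *Kcnh6* (r = 0.950), a potassium channel, and *Orai3* (r = 0.944), a calcium channel. For *Tfrc* they were *Rars* (r = 0.988), arginyl-tRNA synthetase, *Zfp322a* (r = 0.981) and *Gm16386* (r = 0.976). The closest to *Epb42* were *Ciart* (r = 0.975), *Pdcd5-ps* (r = 0.965) and *1700028E10Rik* (r = 0.949), and the closest to *Klf1* were *Card9* (r = 0.927) and *Ivns1abp* (r = 0.925). Both of these members had few counts. No p is given, since each gene was taken as the highest of 15885.

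Counts were also set against the adult globin counts of the same brain, a ratio that does not depend on library scaling. *Slc4a1* and *Alas2* relative to adult globins were higher in all 4 CDD brains than in any ND brain. *Slc4a1* gave 6.08, 6.03, 5.99 and 6.81 counts per 1000 adult globin counts in CDD replicates 1 to 4 and 3.81, 4.44, 3.66 and 4.04 in ND replicates 1 to 4. The difference was 0.65 on the log2 scale, or 1.56-fold (exact two-sided permutation test, p = 0.0286, the smallest that 4 against 4 brains can give, adjusted over 5 ratios 0.0714).

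*Alas2* gave 22.8, 21.8, 23.1 and 24.3 counts per 1000 adult globin counts in CDD and 20.0, 17.9, 19.6 and 19.2 in ND replicates 1 to 4. The diets were again apart, by 0.26 on the log2 scale or 1.20-fold (exact two-sided permutation test, p = 0.0286, adjusted 0.0714). Neither ratio passed the adjustment. Over all 19367 genes, 1.02% had ratios that were higher in every CDD brain than in any ND brain, and 0.0103% had ratios that were lower.

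The other 3 genes overlapped between the diets. *Tfrc* gave 80.4 to 177 counts per 1000 adult globin counts in CDD and 28.0 to 99.5 in ND brains, a log2 difference of 0.88 (exact permutation p = 0.114). For *Epb42* the log2 difference was 0.36 (exact permutation p = 0.486) and for *Klf1* it was 0.54 (exact permutation p = 0.457), with few counts behind each.

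The choice of globins in the denominator bears on these values. With alpha or beta adult globins alone, both chosen after the data were seen, the ratio of *Slc4a1* differed by 0.56 and 0.72 on the log2 scale and that of *Alas2* by 0.18 and 0.34, without overlap each time. Both denominators are parts of the adult globin sum, so these are not separate observations. The share of all genes without overlap was not computed for them. With all 7 globins as denominator, *Slc4a1* differed by 0.45 (exact permutation p = 0.0286) and *Alas2* by 0.07 with overlap (exact permutation p = 0.286). Against this denominator, 0.501% of all genes were higher without overlap. Against the embryonic globins the ratios turned, with *Slc4a1* lower by a log2 value of -2.05 and *Alas2* by -2.44 (exact permutation p = 0.0286 each). There 98.2% of all genes were lower without overlap, beside the higher embryonic globins of the CDD brains.

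*Slc4a1* was also compared with *Alas2* directly, after the ratios had been seen and so without a test. It gave 26.7, 27.7, 26.0 and 28.0 counts per 100 *Alas2* counts in CDD and 19.0, 24.8, 18.7 and 21.1 in ND replicates 1 to 4. The lowest CDD brain was above the highest ND brain. How many of all genes would lie apart in their ratio to *Alas2* was not computed, so this is a description only. *Epb42* counts per 100 *Alas2* counts overlapped, at 0.811 to 2.28 in CDD and 0.766 to 2.48 in ND brains.

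**Figure D3:**
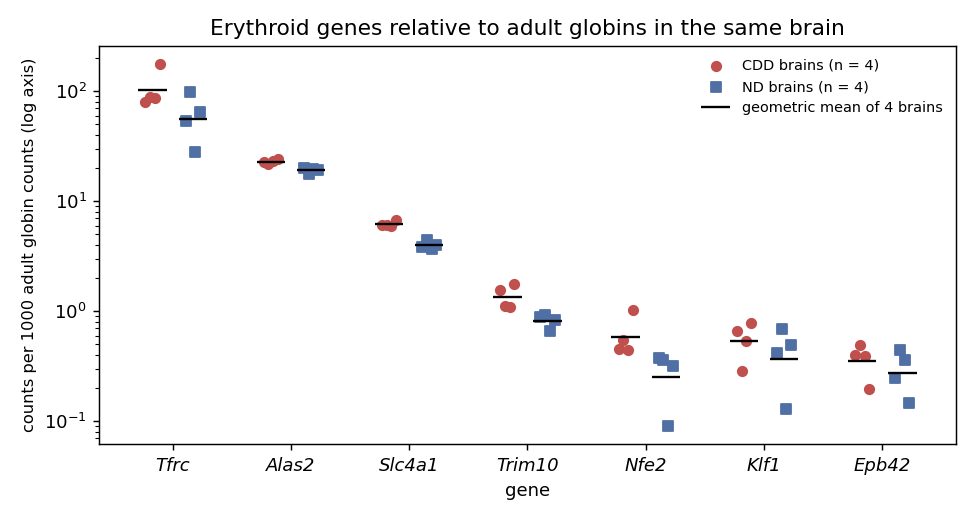
Counts of 7 erythroid genes per 1000 adult globin counts of the same brain, on a log axis, with 1 point per brain and the geometric mean of 4 brains as a line. Alas2, Slc4a1, Trim10 and Nfe2 have all CDD points above all ND points, and Tfrc, Klf1 and Epb42 overlap (Trim10 and Nfe2 are no members and were chosen after their values were seen).

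With the adult globin level as a covariate beside diet in edgeR, a fit added after the data were seen that uses the same globin values, *Slc4a1* was higher in CDD by 0.55 on the log2 scale (SE 0.12, edgeR adjusted p = 0.0243) and was the 1 member called. *Alas2* was at 0.27 (SE 0.073, edgeR adjusted p = 0.0695), and *Tfrc* at 0.27 was no longer called (edgeR adjusted p = 0.101). *Epb42* was at 0.59 (SE 0.45, edgeR adjusted p = 0.592). Over all genes this fit called 1.59%.

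Other genes of red cells and of iron handling were taken from 5 lists with 61 genes, of which 58 were in the table and 53 were tested. Of these, 4 (7.55%) were called, 2 higher and 2 lower in CDD, beside 8.83% of all genes tested. The median log2 fold change of the 53 genes was 0.01, and that of all genes tested was -0.0038.

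Of 14 genes of the red cell membrane, 1 rose and 2 fell. *Epb41*, which encodes protein 4.1 of the membrane skeleton, was at 275, 285, 270.3 and 310 CPM in CDD and 247, 256, 259 and 251 CPM in ND replicates 1 to 4, without overlap (log2 fold change 0.17, SE 0.048, edgeR adjusted p = 0.0341). *Ank1*, the ankyrin that ties band 3 to spectrin, was at 33.0, 35.8, 38.2 and 33.6 CPM in CDD and 41.3, 38.4, 43.4 and 45.0 CPM in ND replicates 1 to 4, also without overlap (log2 fold change -0.26, SE 0.063, edgeR adjusted p = 0.0167). *Dmtn*, the actin-bundling protein dematin, fell by 0.22 on the log2 scale (SE 0.061, edgeR adjusted p = 0.0338) with overlap. Neurons express all 3 genes too. With any 1 brain left out, the log2 fold change stayed between -0.30 and -0.22 for *Ank1*, -0.26 and -0.17 for *Dmtn*, and 0.13 and 0.20 for *Epb41*, but the calls did not all hold. That of *Ank1* was lost without CDD replicate 1 or ND replicate 1, 3 or 4 (edgeR adjusted p = 0.0508 to 0.0788), and that of *Dmtn* without CDD replicate 1 or 4 or ND replicate 1, 3 or 4 (edgeR adjusted p = 0.0744 to 0.125). The call of *Epb41* was held only without CDD replicate 1 or 3 and otherwise lost (edgeR adjusted p = 0.0574 to 0.127).

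Of 10 erythroid transcription genes tested, 1 rose, *Tal1*, a partner of GATA1 that is also expressed in the midbrain and hindbrain. It was at 37.2, 40.9, 36.9 and 38.3 CPM in CDD and 33.9, 34.9, 32.0 and 30.8 CPM in ND replicates 1 to 4, with no overlap (log2 fold change 0.22, SE 0.059, edgeR adjusted p = 0.0262). With any 1 brain left out, the log2 fold change was 0.19 to 0.25, and the call was lost without CDD replicate 2 or ND replicate 1, 3 or 4 (edgeR adjusted p = 0.0622 to 0.113). CDD replicate 2, the brain that stood apart in *Hox* counts, had the highest *Tal1* level. Without it, the log2 fold change was 0.19 (edgeR adjusted p = 0.0727). Any part of hindbrain tissue in the level of *Tal1* was not tested. The median log2 fold change of the list was 0.03.

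None of the 12 heme synthesis genes was called by edgeR, DESeq2 or limma-voom, and 1 had an unadjusted edgeR p under 0.05. Over all genes, edgeR called 8.83% and DESeq2 13.9%, and 23.9% had an unadjusted edgeR p under 0.05. With 12 genes, 0 calls say little about the list as a whole. The median log2 fold change of the 12 genes was -0.04. The most abundant were *Abcb10*, a mitochondrial transporter, at 0.01 on the log2 scale (edgeR adjusted p = 0.969), and *Ppox*, which makes protoporphyrin, at -0.17 (edgeR adjusted p = 0.266).

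Of 7 other erythroid genes tested, 0 were called by edgeR, DESeq2 or limma-voom and 0 had an unadjusted edgeR p under 0.05. Over all genes, edgeR called 8.83%, and 23.9% had an unadjusted p under 0.05, so 0 of 7 says little about this list. *Bpgm*, which sets the oxygen affinity of hemoglobin through 2,3-bisphosphoglycerate, was at -0.11 (edgeR adjusted p = 0.513), and *Ypel4* at -0.10 (edgeR adjusted p = 0.590). Of 10 genes of iron uptake and storage, 0 were called by edgeR, 1 by DESeq2 and 0 by limma-voom, and 2 had an unadjusted edgeR p under 0.05. The ferritin chains *Ftl1* and *Fth1*, which store iron, were the most abundant, at 0.04 (edgeR adjusted p = 0.653) and 0.01 (edgeR adjusted p = 0.918) on the log2 scale. *Ireb2*, which encodes an iron-sensing regulator of *Tfrc* and ferritin transcripts and was named after its values were seen, was at 224, 224, 212 and 247 CPM in CDD and 209, 208, 195 and 203 CPM in ND replicates 1 to 4, without overlap (log2 fold change 0.15, SE 0.049, edgeR adjusted p = 0.0557). It was called by DESeq2 (adjusted p = 0.0292), by edgeR without the filter (adjusted p = 0.0265) and by edgeR with the replicate block (adjusted p = 0.0456). DESeq2 called 13.9% of the genes it adjusted, and edgeR without the filter 6.99%. *Ireb2* was not called with RLE (edgeR adjusted p = 0.0613) or upper-quartile scaling, the minimum of 10 counts, the *Xist* or globin covariate, or limma-voom. Of the fits with 1 brain left out, only that without CDD replicate 3 called it. In CPM, 15% of all genes had no overlap.

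**Figure D4:**
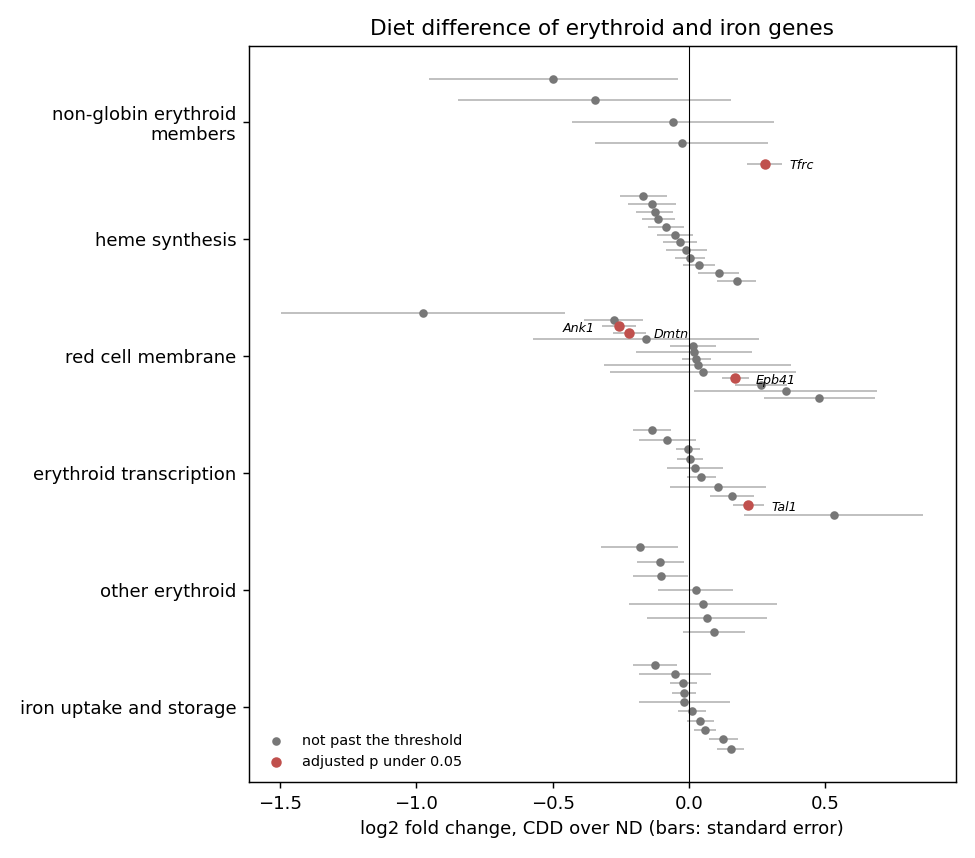
Log2 fold change of CDD over ND for each gene tested, with 1 point per gene, its standard error as a bar, and red points for an edgeR adjusted p under 0.05. Tfrc, Epb41 and Tal1 lie above 0 and Ank1 and Dmtn below 0, and the other genes were not called.

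Relative to adult globins, *Nfe2* of the 10 transcription genes and *Trim10* of the 7 other erythroid genes had no overlap between the diets, and both were higher in CDD. They were named after their values had been seen. *Nfe2*, a transcription factor of red cells and platelets, gave 0.444 to 1.04 in CDD and 0.0903 to 0.379 in ND brains, from 9 to 21 counts per brain. *Trim10*, a protein of late red cell maturation, gave 1.09 to 1.78 in CDD and 0.662 to 0.928 in ND brains. None of the 12 heme synthesis, 10 iron, 10 brain marker and 12 endothelial genes was without overlap. Over all genes, 1.02% were higher and 0.0103% lower in CDD without overlap, so a count of 0 in these lists is close to that share.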

How the data were processed

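RNA-seq of 8 whole brains was used, grouped by the diet that the labels name. The authors deposited raw counts per gene and brain, a signal normalized by library size factors with its mean per diet (not used), and FPKM values made from that signal and the listed gene length. Per the labels, HISAT2 2.0.5, featureCounts 1.5.0-p3 and DESeq2 1.20.0 stand in the submitters' processing notes. The genome build and the strand setting are not given in the sources used here. The authors' fold changes, p-values and adjusted p-values, and 3 shorter extracts of the same table, were not used.

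From the deposited counts, genes were filtered with filterByExpr, scaled by TMM and tested with edgeR 4.0.16 (robust quasi-likelihood, diet as the single term), with Benjamini-Hochberg adjustment over 19367 genes and a threshold of 0.05 (R 4.3.3). CPM used TMM library sizes. Log2 CPM values had a prior count of 2. Deposited FPKM values served for comparing levels between genes. Ratios are gene counts over summed globin counts of the same brain and were tested for members with at least 3 counts in every brain. Ratios and the globin sum were compared between diets by exact permutation of the brains (two-sided). Libraries held 31770217 to 43121170 counts. Chi-square per degree of freedom between brains was at least 3.76, so brains differed beyond sampling noise. The test was tried on simulated counts. Figures came from matplotlib 3.10.9, and tables from NumPy 2.4.6 and pandas 2.3.3 (SciPy 1.17.1, Python 3.11.15).

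All 7 members are named, with every list gene past the threshold (up to 6 per list), or the 2 most abundant where none passed, and the 3 genes most like each tested member. Members and lists were chosen with earlier results of these data known. *Ahsp*, *Car1* and *Tf* were not analysed here. Alternatives were DESeq2 1.42.0, limma-voom (limma 3.58.1), RLE and upper-quartile scaling, no filter, a block for the replicate number, a minimum of 10 counts in each brain, a covariate for *Xist*, leaving out each brain, and other globins. The adult globin covariate and alpha or beta globins alone were added after the data were seen. DESeq2 gave no adjusted p for *Gata1*, *Rhag*, *Epb42* and *Klf1*. A gene that the rule on likeness selects and a list gene are not reported here.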

Additional observations from a re-analysis of the deposited data

Results flagged for a closer look

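Among 34 groups of 4 brains checked for a value far from the others, 2 were found where chance gives about 1.7. Both are the ratio to adult globins in CDD replicate 4, the brain with the fewest adult globin counts. For *Slc4a1*, the log2 ratio there was -7.20, and the gap to the next CDD brain took up a share of 0.880 of the range of the CDD brains. For *Tfrc*, the log2 ratio there was -2.50, with a share of 0.871. Both ratios share the same denominator, so they are not separate observations.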

How the results depend on the processing

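*Tfrc* kept its direction under every alternative test, scaling, filter, covariate and brain left out. The calls of *Ank1*, *Dmtn*, *Epb41* and *Tal1* were lost with the globin covariate, at log2 fold changes of -0.22, -0.18, 0.15 and 0.20 in that order. The number of members called was 1 in each alternative other than brains left out, where it ranged from 0 (without ND replicate 3 or 4, with 1 at an unadjusted p under 0.05 each) to 1. With the globin covariate the member called was *Slc4a1* in place of *Tfrc*. The list genes called numbered 4, but 7 without a filter, 7 with DESeq2, 1 with the globin covariate, and 0 to 7 with brains left out (0 without ND replicate 1, 3 or 4, with 8 to 10 at an unadjusted p under 0.05, 2 without CDD replicate 1 or 4, 7 without CDD replicate 3). Over all genes, 471 were called without ND replicate 3, 615 without ND replicate 4, 688 without ND replicate 1, 2495 without CDD replicate 3 and 307 with the covariate, against 1710. The cause of these shifts was not tested. The covariate turned *Alas2* to 0.27, *Slc4a1* to 0.55 and *Epb42* to 0.59, and leaving out ND replicate 3 turned *Slc4a1* to 0.33 and *Epb42* to 0.35. Embryonic globins as denominator turned all 5 ratios, to -2.44 (*Alas2*), -2.05 (*Slc4a1*), -2.34 (*Epb42*), -2.16 (*Klf1*) and -1.82 (*Tfrc*), and all 7 globins gave 0.0704 for *Alas2*. With embryonic globins in place of adult ones, r was -0.127 for *Alas2*, 0.216 for *Slc4a1*, 0.0487 for *Epb42* and 0.832 for *Tfrc* (exact permutation p = 0.0141). With brains left out, log2 fold changes ranged from -0.74 to -0.03 (*Alas2*), -0.25 to 0.33 (*Slc4a1*), -0.63 to 0.35 (*Epb42*), -0.27 to 0.15 (*Klf1*) and 0.22 to 0.35 (*Tfrc*), ratios from 0.23 to 0.29 (*Alas2*), 0.60 to 0.70 (*Slc4a1*), 0.05 to 0.64 (*Epb42*), 0.04 to 0.84 (*Klf1*) and 0.55 to 1.16 (*Tfrc*), and correlations from 0.933 to 0.989 (*Alas2*), 0.680 to 0.880 (*Slc4a1*), 0.534 to 0.877 (*Epb42*), -0.267 to 0.326 (*Klf1*, 0.326 without ND replicate 3) and -0.616 to -0.041 (*Tfrc*). The ratios with brains left out are values without a test. Deviations of same-numbered brains correlated at 0.105, -0.133, 0.117 and 0.232, and CDD replicates 1, 3 and 4, but not 2, correlated best with their own number. Since 1 of the 4 is not over 0.1, the numbers were not taken as pairs. The replicate block gave 1 member and 5 list genes called, and 1812 genes in all. Depth limits *Gata1*, *Rhag*, *Epb42* and *Klf1*, with at most 36 counts in any brain.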
